A study of Callithrix jacchus with 54 samples.

Results

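Embryonic stem cells of the common marmoset (cjESCs) were given IM12 and activin A for 24 h, the step that precedes cytokine induction toward primordial germ cell-like cells, and their transcriptomes were set against cjESCs that had stayed in their maintenance medium. Few genes differed, and the list with the most calls among them was that of hypoxia-responsive and glycolytic genes, led by VEGFA, which were lower after the pre-treatment. Lists of genes that WNT and activin/NODAL signals are known to induce gave almost no call. Of all genes only 0.447% were called higher and 0.679% lower, so lists of this size would hold few calls anyway. The lists were chosen with earlier results of these data known. The comparison rests on 4 of the 54 libraries of the series, chosen by their labels: 2 of pre-treated cells (Pre) and 2 of cjESCs in PESFA, a primate ESC medium with bFGF and activin A.

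All 4 libraries came from the CMES40 line carrying a tdTomato reporter at BLIMP1 and an eGFP reporter at NANOS3, labelled wild type (no inducible transgenes), and all were sorted for the surface antigen TRA-1-60. The PESFA cells had no other treatment. Pre cells were taken from PESFA culture, dissociated, replated on fibronectin and kept in a GMEM-based serum replacement medium with IM12, activin A and ROCK inhibitor, whereas cjESCs in PESFA grew as colonies on mouse embryonic fibroblast feeders. Medium, bFGF, matrix, feeders, dissociation, ROCK inhibitor, IM12 and the activin A dose therefore changed together and cannot be told apart. The study's methods give a reduced oxygen level for cjESC maintenance and state none for the pre-treatment. A difference in oxygen therefore cannot be told apart from the rest either. No library of the pre-treatment medium without IM12 was analysed here. A pair of neighbouring conditions served for orientation: cjESCs in DK20FA (a conventional KnockOut DMEM medium with bFGF and activin A; 2 libraries, TRA-1-60 sorted, a derivative with rtTA, tetO-BLIMP1, SOX17-GR and DD-TFAP2C) and pre-treated cells after 12 h as aggregates in BMP4, LIF, SCF, EGF, ROCK inhibitor and the WNT inhibitor IWR1 (BLSE + IWR1; 2 libraries, unsorted).

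IM12 inhibits GSK3β, the kinase that marks β-catenin for destruction, so it acts as a WNT agonist. Stabilized β-catenin enters the nucleus and, with TCF/LEF factors, switches on feedback genes such as AXIN2 and, in pluripotent cells, primitive streak genes such as TBXT. Activin A binds the receptors that NODAL uses, and signals through SMAD2 and SMAD3; the pathway both sustains primed pluripotency and, at higher strength, favours mesendoderm. In human cells a short exposure to these signals is used to make pluripotent cells competent for the germ cell fate.

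The libraries listed 12219 and 12123 genes above 0 TPM in PESFA and 12351 and 12431 in Pre, of 14812 genes in the table. No pair among the 54 libraries held identical values. Across the 11197 genes with log2(TPM + 1) of at least 1.5 in at least 1 library, the replicates correlated with r = 0.983 in PESFA and 0.988 in Pre (genes are not independent replicates). Between the groups r ran from 0.976 to 0.989, so Pre and PESFA libraries were about as alike as replicates were. PESFA replicate 2 stood farthest from the rest, with r of 0.976 to 0.983. TPM values keep no sequencing depth, so the precision that depth gives each value is unknown.

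The label of a pluripotent population held in both groups. POU5F1, the core pluripotency factor, was at 3429 and 3297 TPM in PESFA and 4109 and 3694 TPM in Pre. NANOG was at 692 and 534 TPM in PESFA and 769 and 721 TPM in Pre, and SOX2 at 235 and 232 TPM against 216 and 209 TPM. The sorted libraries were not free of fibroblast transcripts, however. The 29 fibroblast markers in the table summed to 12174 and 11625 TPM in the PESFA libraries and to 8885 and 14470 TPM in the Pre libraries, against 3438 to 4650 TPM in DK20FA and 3767 to 4012 TPM at 12 h of BLSE + IWR1. None of the 29 was listed at 0 in both libraries of PESFA or of Pre. COL1A1, a fibrillar collagen chain, was at 1598 and 878 TPM in PESFA and 1385 and 2715 TPM in Pre, against 41.8 and 83.6 TPM in DK20FA. The feeders were mouse cells, and the reads were aligned to the marmoset genome. Whether mouse reads are among these fibroblast values was not tested.

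Differences were tested by limma on log2(TPM + 1) with Benjamini-Hochberg adjustment over the 11197 genes, with all 54 libraries sharing the estimate of the spread. That estimate draws mostly on the other conditions, so SEs, p-values and intervals do not measure the spread within PESFA and Pre. For genes near 0 in most other conditions the estimate is small. It can also be too small where PESFA or Pre replicates lie far apart, and too large where they lie close together. At an adjusted p under 0.05, 50 genes (0.447% of those tested) were higher and 76 (0.679%) were lower in Pre than in PESFA. With the study's thresholds for differentially expressed genes (DEGs: over 4-fold, adjusted p under 0.01, mean log2 over 1.5), 2 genes were higher, SMKR1 and ASPN, and 2 were lower, CRABP1 and VEGFA, each direction being 0.0179% of the genes tested. Called differences ran from 0.31 to 2.51 on the log2 scale among higher genes and from 0.40 to 2.50 among lower genes, and the median difference of all genes was 0.03.

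The number of calls depended on single libraries. Without PESFA replicate 2 it was 3 higher and 22 lower, and without Pre replicate 1 it was 13 and 14. Without Pre replicate 2 it was 75 and 141, and without PESFA replicate 1 it was 194 and 240. Fitted on the 4 libraries alone, limma called no gene, with 747 genes at an unadjusted p under 0.05; the fit over all libraries had 1382. Scaling the libraries by median ratios left 24 higher and 97 lower calls, so that higher genes made up 19.8% of the calls instead of 39.7%.

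**Figure D1:**
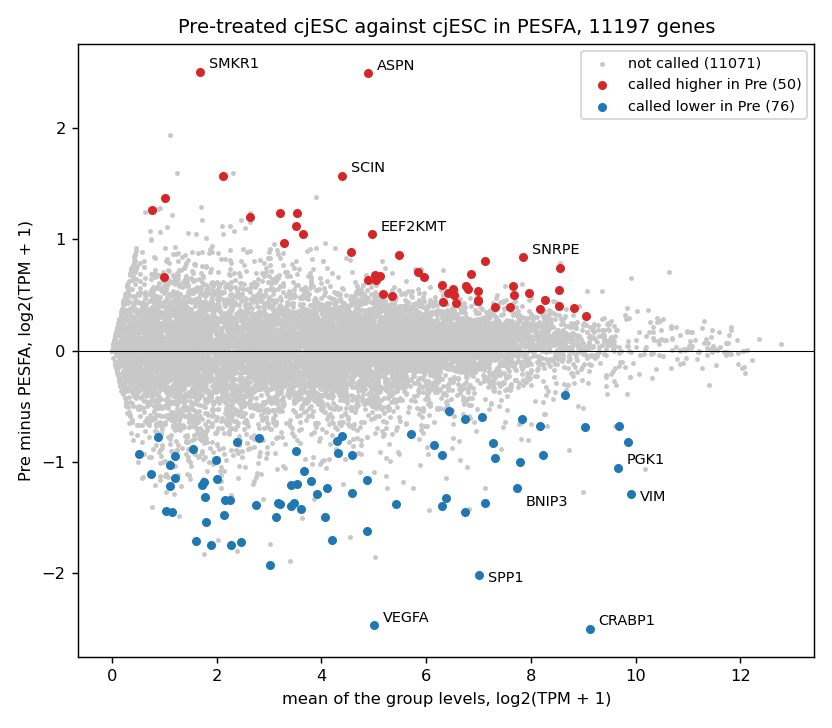
Difference between Pre and PESFA (vertical axis, log2(TPM + 1)) against the mean of both group levels (horizontal axis, log2(TPM + 1)) for 11197 genes, with grey points for genes not called and coloured points for the 50 genes called higher and the 76 called lower at an adjusted p under 0.05. SMKR1, ASPN, VEGFA and CRABP1 lie more than 2 log2 units from 0, while most genes lie close to it.

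VEGFA encodes the growth factor that drives blood vessel formation and is a classical target of hypoxia-inducible factors. It was at 55.8 and 95.3 TPM in PESFA and at 11.9 and 12.8 TPM in Pre. Both Pre libraries lay far below both PESFA libraries, and the Pre replicates nearly coincided. VEGFA fell by 2.47 on the log2 scale (SE 0.27, limma adjusted p = 3.083e-07), which is 5.54-fold, and passed under 10 of 11 alternatives, all but the fit to 4 libraries (adjusted p = 0.703). PESFA held the highest mean VEGFA level of all 27 conditions (75.5 TPM, SD 27.96, n = 2), within its own spread of the next, a transgene-carrying condition at 12 h with 69.4 TPM, and Pre ranked 15th (12.4 TPM, SD 0.69). The level was 20.2 and 23.6 TPM in DK20FA, and through BLSE + IWR1 it was 11.0 and 5.83 TPM at 12 h, 5.22 and 6.54 TPM at 24 h and 2.26 and 3.98 TPM at 48 h.

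CRABP1 encodes a cytoplasmic carrier of retinoic acid. It was at 758 and 1696 TPM in PESFA and at 97.7 and 406 TPM in Pre. The groups did not overlap, but replicates differed by a wide margin in each. CRABP1 fell by 2.50 (SE 0.36, limma adjusted p = 6.746e-05), and by 1.48 without Pre replicate 1 and 1.92 without PESFA replicate 2. The SE draws on all conditions and does not measure this spread between replicates. In the fit to the 4 libraries alone the limma adjusted p of CRABP1 was 0.703. In the other 25 conditions its mean stayed at or under 98.7 TPM, a level reached on day 20 of later culture, so the Pre mean of 252 TPM (SD 218, n = 2) was the second highest of the series. At 12 h of BLSE + IWR1 CRABP1 was at 28.2 and 29.1 TPM. The fibroblast marker sums given above were higher in PESFA and Pre than in DK20FA and at 12 h too, and their part in the CRABP1 difference was not tested.

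ASPN encodes asporin, a small leucine-rich proteoglycan of connective tissue matrix and one of the fibroblast markers. It was at 21.3 and 4.36 TPM in PESFA and at 45.6 and 80.2 TPM in Pre. Both Pre libraries were higher, and ASPN rose by 2.49 (SE 0.32, limma adjusted p = 6.284e-06), or by 1.46 without PESFA replicate 2. It was listed at 0 in both DK20FA libraries and was 0.78 and 0.31 TPM at 12 h of BLSE + IWR1. Outside PESFA and Pre, no condition had a mean above 0.545 TPM. The SE draws on those conditions, whose values near 0 vary little, and so understates the spread between the PESFA replicates. Fitted on the 4 libraries alone, ASPN had a limma adjusted p of 0.703.

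SMKR1, which encodes a small lysine-rich protein, was listed at 0 and 0.70 TPM in PESFA and was at 5.05 and 8.06 TPM in Pre. It rose by 2.51 (SE 0.42, limma adjusted p = 0.0004853); with a pseudocount of 0.1 the difference was 4.52, since it depends on the pseudocount near 0. Here PESFA was the condition that stood apart: it had the lowest mean of all 27 conditions, Pre ranked 17th, DK20FA was at 6.17 and 15.3 TPM, and the highest means, 49.4 and 49.9 TPM, came on days 70 and 40 of later culture.

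**Figure D2:**
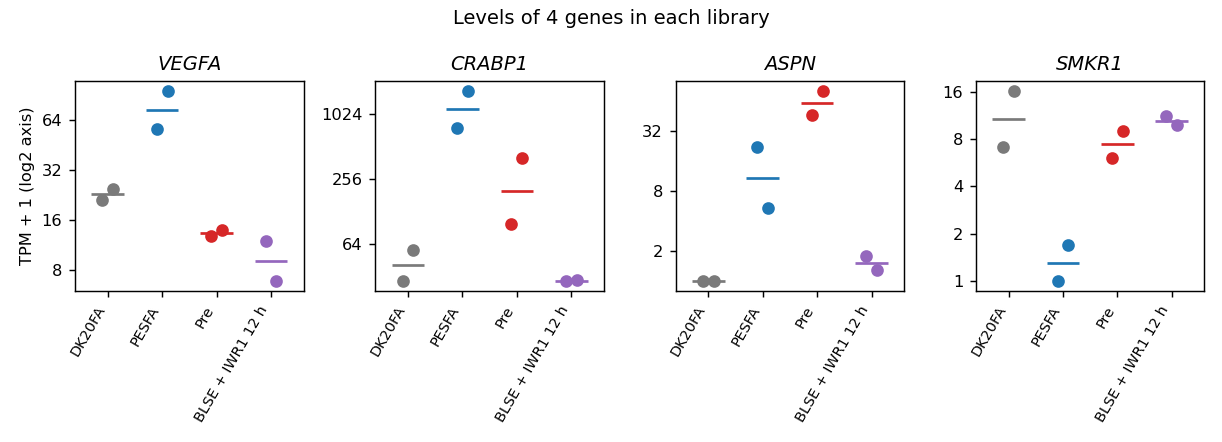
TPM + 1 on a log2 axis for VEGFA, CRABP1, ASPN and SMKR1 in each library of DK20FA, PESFA, Pre and BLSE + IWR1 at 12 h, with points for libraries and bars for group means on the log scale. Pre and PESFA points do not overlap for any of the 4 genes; for VEGFA and SMKR1 the Pre points lie near those at 12 h, whereas ASPN is near or at 0 TPM outside PESFA and Pre.

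Of 26 hypoxia and glycolysis genes tested, 9 fell and none rose. Both Pre libraries lay below both PESFA libraries for 20 of the 26 and above for 0, where over all genes 16% lay below and 21.2% above. The median difference of the list was -0.60, against 0.03 for all genes, of which 0.679% were called lower. Without VEGFA, which was known to fall when the list was used, 8 of 25 fell with a median of -0.58. The list was itself chosen with earlier results of these data known, so leaving VEGFA out does not make these counts separate support. Hypoxia-inducible factors raise such genes when oxygen is short, moving ATP production toward glycolysis.

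Of the glycolytic enzymes, PGK1, which makes ATP in the payoff phase of glycolysis, was at 1190 and 1139 TPM in PESFA and 557 and 563 TPM in Pre. Replicates lay close together and the groups far apart: PGK1 fell by 1.05 (SE 0.10, limma adjusted p = 6.218e-08), 2.08-fold, and by 1.02 to 1.09 with any library left out. LDHA, lactate dehydrogenase A, was at 1371 and 1107 TPM in PESFA and 730 and 663 TPM in Pre, a fall by 0.82 (SE 0.13). ALDOA, an aldolase, was at 1118 and 959 TPM against 644 and 652 TPM, PFKL, a phosphofructokinase, at 123 and 95.6 TPM against 55.0 and 57.6 TPM, and PKM, pyruvate kinase, at 140 and 123 TPM against 82.8 and 87.0 TPM. These 3 genes fell by 0.68, 0.93 and 0.62. Not every step moved alike. GAPDH was at 3662 and 3254 TPM in PESFA and 3315 and 3523 TPM in Pre with overlapping groups, and PGAM1, at 1500 and 1338 TPM against 1299 and 1226 TPM, differed by -0.17 (SE 0.11, limma adjusted p = 0.6034).

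Of the members with other roles, P4HA1, a collagen prolyl hydroxylase, was at 250 and 195 TPM in PESFA and 75.4 and 95.5 TPM in Pre. It fell by 1.37 (SE 0.22, limma adjusted p = 0.0003244). EGLN1, the oxygen sensor that marks hypoxia-inducible factors for degradation, was at 45.3 and 28.6 TPM against 12.5 and 16.2 TPM and fell by 1.28. BNIP3, a mitophagy receptor, was at 400 and 255 TPM against 141 and 130 TPM and fell by 1.23. In all of these the lower PESFA library was well above the higher Pre library. Genes named after their values were seen include ANKRD37, at 9.99 and 7.59 TPM against 1.74 and 1.83 TPM, whose difference of -1.80 had an SE of 0.52 and missed the threshold (limma adjusted p = 0.07718), and SLC2A1, a glucose transporter at 960 and 649 TPM against 760 and 609 TPM, whose groups overlapped.

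Without PESFA replicate 2, 8 of the 9 were still called, and without Pre replicate 1, 7 were. PKM (adjusted p 0.02138) was the call lost each time and also without PESFA replicate 1, and EGLN1 was lost without Pre replicate 1. The median of the list was -0.70 without PESFA replicate 2 and -0.65 after median-ratio scaling. The list's transcripts summed to 11602 and 9877 TPM in PESFA, 8261 and 8133 TPM in Pre, 9236 and 10718 TPM in DK20FA and 8265 and 8930 TPM at 12 h.

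**Figure D3:**
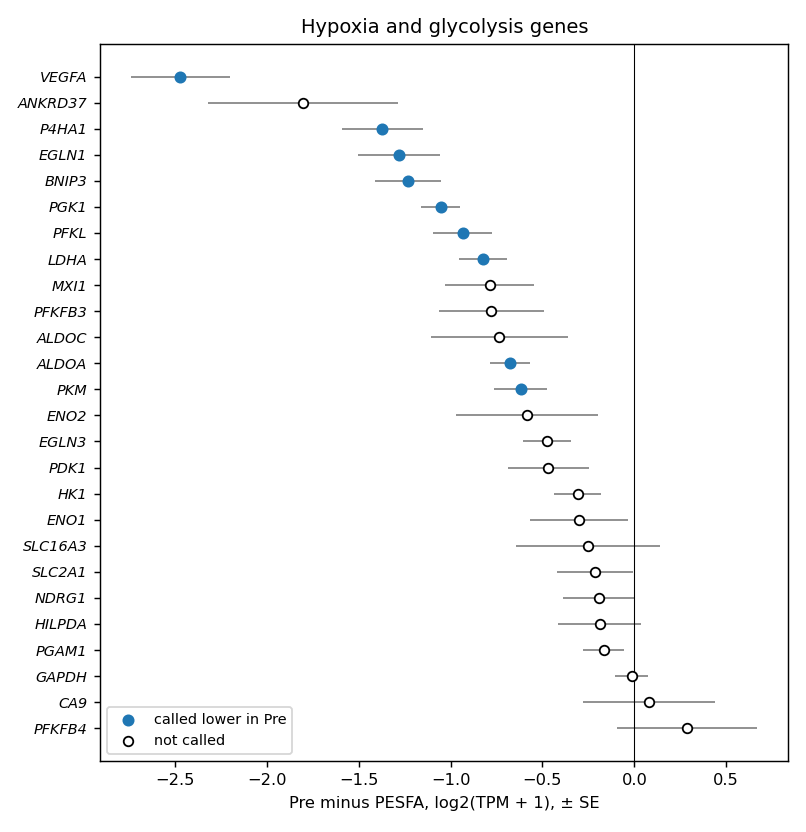
Pre minus PESFA on the log2(TPM + 1) scale with its standard error for each of 26 hypoxia and glycolysis genes, filled where called lower at an adjusted p under 0.05. Only CA9 and PFKFB4 lie above 0, and VEGFA is the farthest below it.

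Further lowered genes outside that list are also known as hypoxia-responsive or glycolytic. They were picked from the calls after their values were seen, so their fall adds no separate support. PGM1, phosphoglucomutase, was at 56.9 and 42.8 TPM in PESFA and 12.1 and 19.4 TPM in Pre and fell by 1.62. TPI1, the triose isomerase, was at 758 and 579 TPM against 406 and 419 TPM and fell by 0.68. FAM162A, a mitochondrial hypoxia-inducible protein, was at 248 and 199 TPM against 121 and 105 TPM and fell by 0.97. Smaller transcripts followed: ERO1A, an oxidase of disulfide bond formation, at 38.5 and 26.3 TPM against 16.9 and 15.4 TPM, and DDIT4, a stress-induced inhibitor of mTORC1, at 170 and 92.8 TPM against 40.2 and 61.2 TPM. PGK2, a copy of PGK1 used in the testis, was at 5.15 and 4.69 TPM against 1 and 1.06 TPM; since it shares sequence with PGK1, its reads may not be separable from those of PGK1. PGM1, TPI1, ERO1A and DDIT4 lost their calls without Pre replicate 1, and TPI1 and ERO1A also without PESFA replicate 1.

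The other genes among the 15 largest decreases were mostly secreted proteins and regulators. SPP1, osteopontin, was at 132 and 375 TPM in PESFA and 28.7 and 101 TPM in Pre and fell by 2.02. APLN, the peptide ligand apelin, was at 7.29 and 8.42 TPM against 1.53 and 1.73 TPM and fell by 1.75, with replicates close together in both groups. CCL7, a chemokine, at 6.03 and 5.53 TPM against 1.11 and 0.93 TPM, and ANGPT2, a modulator of vessel stability, at 12.1 and 15.3 TPM against 4.13 and 4.23 TPM, were as well separated. For NPTX1, a neuronal pentraxin at 3.89 and 32.9 TPM against 2.32 and 2.46 TPM, and MAFF, a small MAF factor at 12.4 and 61.3 TPM against 6.07 and 10.1 TPM, PESFA replicate 2 lay far above the other 3 libraries. Also among them were GLDN, NAB2, a corepressor of EGR factors, DKK2, a WNT modulator, and S100A5, whose log2 differences lay between -1.71 and -1.45. Of the 30 genes with the largest changes, 8 kept their call without PESFA replicate 2 (CRABP1, OGN, PGK2, PGM1, VEGFA, APLN, ASPN and SMKR1), 13 without Pre replicate 1, 24 without Pre replicate 2 and 27 without PESFA replicate 1.

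The lists of WNT genes held no call in either direction: 0 of 7 ligands, 0 of 12 receptors, 0 of 16 transducers and 0 of 26 feedback and target genes (limma, adjusted p under 0.05). With 0.447% of all genes called higher and 0.679% lower, these counts do not set the lists apart from all genes. DKK2, named above, is on none of these lists and was called lower, a call lost without PESFA replicate 2 or without Pre replicate 1. The medians of the lists were -0.07, -0.09, -0.11 and -0.02, and that of the ligands ran from -0.30 without PESFA replicate 2 to 0.16 without PESFA replicate 1. AXIN2, the negative feedback scaffold of the β-catenin destruction complex, was at 8.32 and 6.06 TPM in PESFA and 8.4 and 6.88 TPM in Pre, a difference of 0.09 with a 95% interval from -0.52 to 0.69. LEF1, a transcription factor of the pathway, was at 0.95 and 0.23 TPM against 1.33 and 0.63 TPM, and its interval ran from -0.24 to 0.91. The groups overlapped for both genes. SFRP1, a secreted WNT antagonist and the most abundant target listed, was at 313 and 422 TPM against 275 and 379 TPM. Picked after the values were seen, LGR5, an R-spondin receptor, was at 2.32 and 0.67 TPM against 3.25 and 3.46 TPM (difference 0.89, SE 0.27, limma adjusted p = 0.1043), SP5 at 4.22 and 2.63 TPM against 1.76 and 2.08 TPM, and BAMBI at 60.3 and 44.95 TPM against 77.7 and 65.6 TPM. The most abundant members of the other lists were WNT3, a ligand of the primitive streak, at 8.26 and 10.95 TPM against 17.8 and 11.4 TPM, FZD7, a receptor, at 109 and 239 TPM against 121 and 162 TPM, and TCF7L1, a repressor of targets, at 172 and 169 TPM against 136 and 149 TPM.

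Among activin and NODAL ligands and receptors, 0 of 14 were called (median -0.19), and among the pathway's 15 feedback and target genes, 1 was lower and 0 higher (median -0.02). Lists this small would hold few calls at the share over all genes (0.447% higher, 0.679% lower). NODAL, the ligand that induces its own expression, was at 116 and 96.8 TPM in PESFA and 177 and 135 TPM in Pre. Both Pre values were higher, but the difference of 0.54 had an SE of 0.40 and an interval from -0.28 to 1.36. TDGF1, the NODAL co-receptor and most abundant member, was at 923 and 961 TPM against 857 and 841 TPM. CER1, a secreted antagonist of NODAL named after its values were seen, was at 60.5 and 89.1 TPM against 41.6 and 50.2 TPM with an SE of 0.93 on its difference of -0.67.

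Of 23 mesendoderm and primitive streak genes, 0 were called and the groups overlapped for 16 (median -0.07). Over all genes the groups overlapped for 7030 of 11197, and 0.447% were called higher and 0.679% lower. These counts therefore do not set the list apart. TBXT, the streak factor brachyury, was at 79.9 and 52.7 TPM in PESFA and 63.8 and 48.8 TPM in Pre. MIXL1 was at 20.1 and 24.2 TPM against 17.97 and 17.86 TPM and EOMES at 5.15 and 5.45 TPM against 6.97 and 5.20 TPM. The intervals of these differences were -0.94 to 0.51 for TBXT, -1.65 to 1.08 for MIXL1 and -0.95 to 1.26 for EOMES. Their widths come from the spread shared over all libraries, not from the PESFA and Pre replicates alone.

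The germ cell genes were likewise uncalled, 0 of 18 (median 0.10), where 0.447% of all genes were called higher and 0.679% lower. SOX17, the key factor of primate germ cell specification, was at 7.22 and 7.49 TPM in PESFA and 12.1 and 3.38 TPM in Pre, so the Pre replicates fell on either side of PESFA. TFAP2C was at 107 and 96.0 TPM against 111 and 97.5 TPM, and PRDM1 at 19.9 and 14.9 TPM against 24.5 and 21.2 TPM. NANOS3 stayed low in both, at 1.85 and 0.95 TPM against 1.53 and 2.58 TPM. No core (0 of 13, median 0.11) or naive (0 of 12, median 0.15) pluripotency gene was called. POU5F1 differed by 0.21 (SE 0.10, limma adjusted p = 0.3557), NANOG by 0.29 (SE 0.17) and SOX2 by -0.14 (SE 0.28). LIN28A, an RNA-binding factor, was at 1262 and 1204 TPM against 1407 and 1263 TPM and DPPA5 at 657 and 499 TPM against 686 and 553 TPM. Of the 33 pluripotency, lineage, signalling and germ cell genes chosen because the study discusses them, which include POU5F1, TBXT, SOX17 and AXIN2 above, VIM alone was called.

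VIM, the intermediate filament vimentin, stood in both the primed pluripotency list (1 of 18 lower, median 0.08) and the epithelial-mesenchymal list (1 of 15 lower, median -0.25). Over all genes 0.679% were called lower. VIM was at 1212 and 1817 TPM in PESFA and 504 and 729 TPM in Pre. The groups were well separated, and VIM fell by 1.29 (SE 0.19, limma adjusted p = 6.746e-05), and was called with any library left out. In DK20FA it was at 375 and 729 TPM. SPARC, a matrix protein and the most abundant mesenchymal gene listed, was at 1691 and 1478 TPM in PESFA against 1610 and 1814 TPM in Pre.

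The lists of contractile and adhesion genes had negative medians but 1 call each, and most members had overlapping groups. Of 21 target genes of SRF and YAP, which respond to actin tension, 1 fell and 8 had both Pre libraries below both PESFA libraries (median -0.32). Over all genes 16% lay below, and 0.679% were called lower. TPM2, a tropomyosin, was at 416 and 401 TPM in PESFA and 174 and 261 TPM in Pre and fell by 0.94 (limma adjusted p = 0.02024), but not without PESFA replicate 2 or Pre replicate 1. THBS1, thrombospondin, was at 316 and 1390 TPM against 170 and 445 TPM and missed the threshold (limma adjusted p = 0.1461). The list rested on PESFA replicate 2: its median was -0.12 without that library and -0.70 without PESFA replicate 1. Of 23 integrin and focal adhesion genes 1 fell, TNC, the matrix protein tenascin C at 9.26 and 29.7 TPM against 3.17 and 9.49 TPM (overlapping groups; median of the list -0.16), while ITGB1, the most abundant integrin, was at 725 and 889 TPM against 605 and 621 TPM.

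Matrix and fibroblast genes went both ways. Of the 27 fibroblast markers tested, ASPN rose, TNC and PRRX1 fell, and 21 had overlapping groups (median -0.11), as had 7030 of all 11197 genes. The shares called over all genes were 0.447% higher and 0.679% lower. PRRX1, a mesenchymal homeobox factor, was at 13.3 and 19.5 TPM in PESFA and 4.64 and 8.94 TPM in Pre and fell by 1.19. LGALS1, a galectin and the most abundant marker, was at 4254 and 4586 TPM against 3544 and 4420 TPM. Among the 15 largest increases were other matrix genes: OGN, a proteoglycan related to ASPN, at 0.53 and 0 TPM against 1.59 and 2.94 TPM, MFAP4, a microfibril protein, at 8.99 and 3.94 TPM against 10.1 and 23.6 TPM, ITGA11, a collagen receptor subunit, at 8.93 and 1.95 TPM against 9.02 and 15.3 TPM, and ADAMTS5, a proteoglycan-cleaving protease, at 4.62 and 1.76 TPM against 6.01 and 10.7 TPM. In these and in LRRC17, PESFA replicate 2 was the lowest library and Pre replicate 2 the highest. MFAP4, ITGA11, ADAMTS5 and LRRC17 were not called without PESFA replicate 2 or without Pre replicate 2. Each of the 5 was at or under 0.45 TPM in DK20FA and at 12 h. Their calls, too, rest on a spread estimated mostly where these genes are near 0.

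Named after their values were seen, FGF7, a mesenchymal growth factor, at 34.4 and 48.2 TPM in PESFA and 11.0 and 28.1 TPM in Pre, and NR2F2, a nuclear receptor, at 12.3 and 22.4 TPM against 4.86 and 10.9 TPM, fell. Without Pre replicate 1 their differences were -0.52 and -0.57 (limma adjusted p = 0.8015 and 0.783), and FGF7, NR2F2, PRRX1 and TNC all lost their calls there and without PESFA replicate 2. FGF7 and NR2F2 were at most 0.78 TPM in DK20FA and at 12 h. Of the 76 lowered genes, 22 (28.9%) were under 1 TPM in all 4 libraries of DK20FA and of BLSE + IWR1 at 12 h, as were 7 of the 50 raised genes (14%) and 9.02% of all genes tested. The share of fibroblast transcripts in these differences was not tested, and in bulk RNA fewer cells of a type and less RNA per cell cannot be told apart. In DK20FA, where the fibroblast markers summed to 3438 and 4650 TPM, the levels of the lowered genes varied. PGK2 and APLN were listed at 0, VEGFA was at 20.2 and 23.6 TPM, and PGK1, LDHA and BNIP3 were abundant. The part of fibroblast transcripts in the fall of the hypoxia genes was not tested either.

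**Figure D4:**
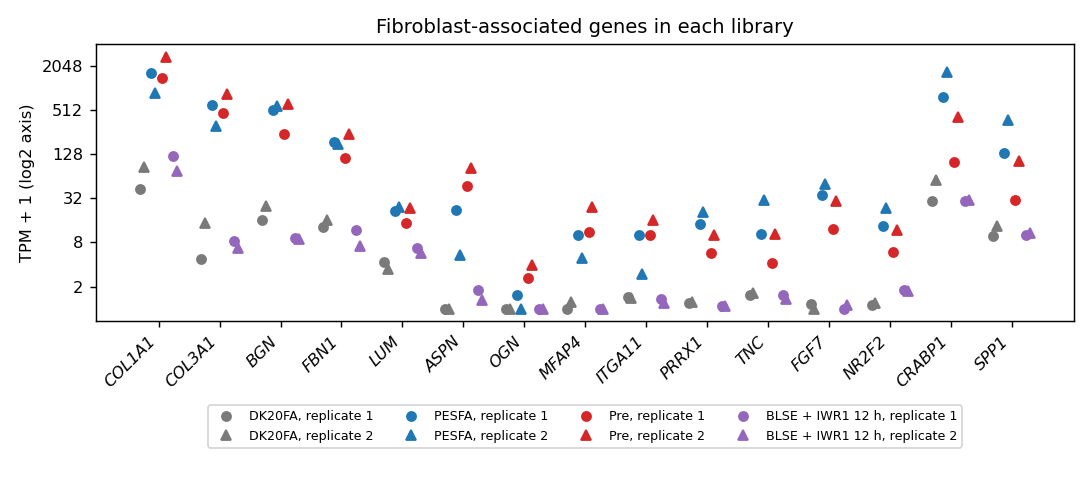
TPM + 1 on a log2 axis in each library of DK20FA, PESFA, Pre and BLSE + IWR1 at 12 h (circles, replicate 1; triangles, replicate 2) for fibroblast markers and for called genes with a similar profile, chosen after their values were seen. PESFA and Pre libraries lie above the others for every gene except OGN, where PESFA replicate 2 is also at 0 TPM.

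Cell cycle genes held 1 call. Of 20 G1/S genes 1 rose, 12 had both Pre libraries above both PESFA libraries and 0 below, and the median was 0.20 (0.15 after median-ratio scaling). The shares over all genes were 21.2% above and 16% below, with 0.447% called higher and 0.679% called lower. TYMS, thymidylate synthase, was at 169 and 167 TPM in PESFA and 234 and 207 TPM in Pre and rose by 0.39 (SE 0.10, limma adjusted p = 0.0385), a call lost when any library except Pre replicate 2 was left out and under median-ratio scaling. PCNA, the sliding clamp of DNA replication, was at 361 and 331 TPM against 433 and 409 TPM. Of 18 G2/M genes 0 were called (median 0.10, or -0.075 without PESFA replicate 2 and 0.26 without PESFA replicate 1), with CCNB1 at 326 and 256 TPM against 372 and 321 TPM.

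Other genes among the 15 largest increases included several with roles in RNA and protein synthesis or metabolism. EEF2KMT, which methylates elongation factor 2, was at 24.3 and 17.3 TPM in PESFA and 45.1 and 41.9 TPM in Pre and rose by 1.04 (SE 0.16, limma adjusted p = 0.0001805). RBMX2, a splicing factor, was at 19.5 and 13.7 TPM against 30.6 and 31.5 TPM and rose by 0.88. SNRPE, an Sm protein of the spliceosome, was at 217 and 132 TPM against 318 and 289 TPM and rose by 0.84. In each, both Pre libraries were above both PESFA libraries; SNRPE lost its call without PESFA replicate 2, Pre replicate 1 or Pre replicate 2, and EEF2KMT and RBMX2 without PESFA replicate 2. RBM48 and UFSP1, a UFM1 peptidase, rose by 1.05 and 1.57, and C12H16orf71 by 1.26. SCIN, an actin-severing protein, was at 13.3 and 8.54 TPM against 49.8 and 22.8 TPM and rose by 1.57.

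Mitochondrial ribosomal protein genes, a family set up after 5 of them were seen among the calls, had 5 of 66 members called higher and 0 lower. Both Pre libraries were above both PESFA libraries for 33 of the 66 and below for 0, and the median was 0.20, or 0.16 after median-ratio scaling. Over all genes 21.2% lay above and 16% below, and 0.447% were called higher and 0.679% lower. All 5 calls were lost without PESFA replicate 2, without Pre replicate 1 and under quantile normalization, and 4 of the 5 were lost under median-ratio scaling. MRPL12 was at 116 and 102 TPM in PESFA and 152 and 145 TPM in Pre and rose by 0.45 (limma adjusted p = 0.02069). The 15 oxidative phosphorylation genes gave 0 calls (median 0.06), and ATP5F1B, the catalytic subunit of ATP synthase, was at 1715 and 1731 TPM against 1736 and 1799 TPM.

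The remaining lists held few calls, and those of NSDHL, PDK4 and STC2 were lost without PESFA replicate 2 or without Pre replicate 1. In cholesterol synthesis 1 of 21 rose (NSDHL, a sterol dehydrogenase, at 101 and 81.3 TPM against 142 and 127 TPM; median 0.07), and the most abundant member, ACAT2, was at 245 and 194 TPM against 301 and 259 TPM. In fatty acid metabolism 1 of 14 fell (PDK4, a brake on pyruvate oxidation, at 14.1 and 25.3 TPM against 5.23 and 11.5 TPM; median -0.03), with SCD at 270 and 201 TPM against 315 and 244 TPM. In the amino acid and unfolded protein responses 2 of 23 fell (DDIT4 and STC2, the latter at 13.8 and 13.2 TPM against 4.36 and 4.88 TPM; median -0.19), with CALR at 3346 and 2811 TPM against 3269 and 3014 TPM. DDIT4 and STC2 are known to respond to hypoxia as well. Of 9 metallothionein and oxidative stress genes 1 fell, HMOX1, heme oxygenase, at 59.6 and 77.4 TPM against 23.4 and 27.7 TPM (median -0.26), a call that passed in 2 of 11 alternatives, while SOD2 was at 408 and 464 TPM against 284 and 439 TPM. Of 16 retinoic acid genes CRABP1 alone was called (median -0.09). Over all genes tested 0.447% were called higher and 0.679% lower.

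With 0.447% of all genes called higher and 0.679% lower, the absence of calls in small lists does not set them apart from all genes. No call was made among 21 BMP genes (median -0.02), 19 FGF and ERK genes (median -0.12), 16 p53 targets (median -0.04), 20 immediate early and heat shock genes (median -0.12), 10 neural genes (median -0.06), 15 amnion and trophoblast genes (median 0.04) or 10 endothelial and blood markers (median -0.25). Their most abundant members were ID3 at 153 and 241 TPM in PESFA against 118 and 209 TPM in Pre, MYC at 265 and 225 TPM against 291 and 246 TPM, and BAX at 430 and 484 TPM against 430 and 468 TPM. HSP90AA1, a chaperone, was at 5470 and 4695 TPM against 5867 and 5038 TPM, NES at 219 and 249 TPM against 300.01 and 277 TPM, KRT18 at 2609 and 1986 TPM against 2946 and 2331 TPM, and CD34 at 30.8 and 32.7 TPM against 17.7 and 16.5 TPM.

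**Figure D5:**
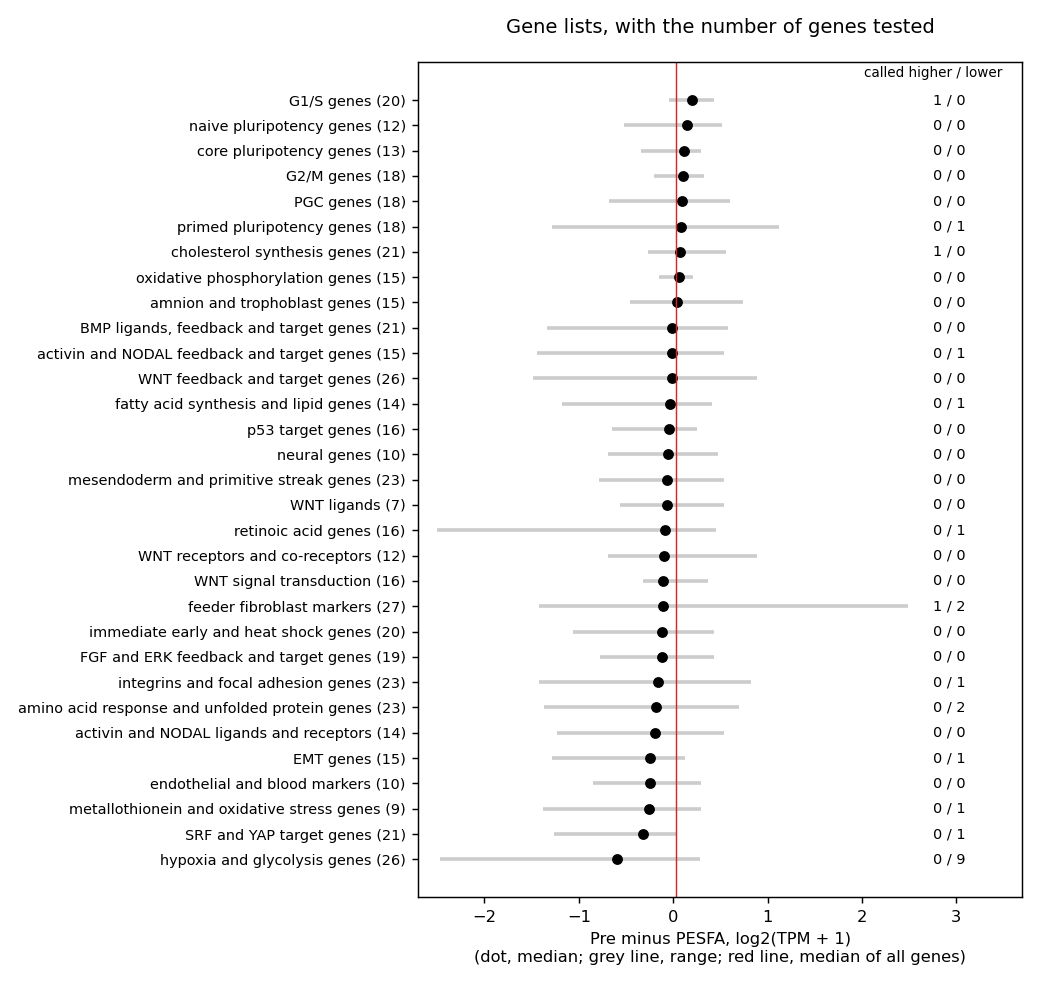
Median (dot) and range (grey line) of the Pre minus PESFA difference on the log2(TPM + 1) scale for 31 gene lists, with the number of genes tested in brackets, the calls in each direction at the right and the median of all genes as a red line. The hypoxia and glycolysis list has the lowest median, -0.60, and 9 lowered genes; no other list has more than 2 in either direction.

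Against cjESCs in DK20FA, which differ in medium and transgenes and share the Pre libraries with the comparison above, 1047 genes (9.35%) were higher and 1138 (10.2%) lower in Pre by limma; without Pre replicate 2 these were 552 and 461. Of the 23 mesendoderm genes, 14 were lower and 1 higher in Pre than in DK20FA, with a median of -2.04 against -0.04 for all genes. Of the 26 WNT feedback and target genes, 10 were lower and 4 higher in Pre than in DK20FA (median -0.52). TBXT was at 435 and 404 TPM in DK20FA and MIXL1 at 353 and 326 TPM, far above the Pre values. Of the 26 hypoxia and glycolysis genes, 9 were lower and 2 higher than in DK20FA (median -0.42): LDHA was at 1289 and 1683 TPM in DK20FA and BNIP3 at 247 and 463 TPM. PGK1, at 594 and 832 TPM, lay between Pre and PESFA. Of 27 fibroblast markers 23 were higher in Pre and 1 lower, with a median of 2.12.

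After 12 h of BLSE + IWR1, 474 genes (4.23%) were higher and 817 (7.3%) lower than in Pre by limma, and without Pre replicate 2 these were 157 and 377; sorted cells were compared with unsorted aggregates. Of the 21 BMP genes 13 rose and 0 fell, with a median of 1.23 against 0.02 for all genes. Of the hypoxia and glycolysis genes 1 rose and 2 fell (median -0.10), with PGK1 at 504 and 535 TPM and LDHA at 818 and 838 TPM, levels near those of Pre. TBXT was at 216 and 71.6 TPM, above both Pre libraries, and rose by 1.15 (limma adjusted p = 0.02871). Of the fibroblast markers 23 fell and 0 rose (median -2.21).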

How the data were processed

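Per the labels and the study's methods, poly(A) RNA was made into directional single-end libraries, aligned with STAR and quantified with RSEM, and the authors deposited TPM values for 14812 genes, which were used as given; every value column was mapped to a sample. Genes needed a log2(TPM + 1) of at least 1.5 in at least 1 of 54 libraries (11197 genes). A group-means model with an intensity trend over 27 conditions was fitted in limma 3.58.1 (R 4.3.3), two-sided, with Benjamini-Hochberg adjustment. Fold changes on this scale understate those of low genes. The study's count test could not be applied to TPM, which keep no depth. Replicates are described as biological duplicates. No permutation test is given, since the smallest exact p for groups of 2 is 0.33.

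Members, lists and named genes were chosen with earlier results of these data known, and lists were described by counts and medians without a test. Named genes were VEGFA, CRABP1, ASPN and SMKR1, the 15 largest increases and 15 largest decreases among calls with a symbol, the called or most abundant members of each list, and genes the study discusses; others are marked in the text, and some genes the rule names are not reported here. The alternatives are given in the closing section. Code was tested on simulated data.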

Additional observations from a re-analysis of the deposited data

How the results depend on the processing

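The counts of genes called in Pre against PESFA moved most with the libraries included. Leaving out 1 library gave 3 to 194 genes higher and 14 to 240 lower, and 0 to 3 higher and 1 to 33 lower DEGs. Other settings gave 24 (median-ratio scaling), 27 (no intensity trend) or 0 (only the 4 libraries compared) genes higher, and 30 (pseudocount of 0.1) or 0 (only the 4 libraries) lower; higher DEGs were 0 with either of the last pair of settings and lower DEGs 0 with only the 4 libraries. In that last fit the lowest adjusted p was 0.703, with 747 genes at an unadjusted p under 0.05. Against DK20FA, leaving out 1 Pre library gave 552 to 874 higher and 461 to 996 lower, and at 12 h of BLSE + IWR1 157 to 438 and 377 to 752. With the replicate number as a block, 57 genes were higher and 80 lower and all 126 calls were kept; same-numbered samples correlated with r = 0.16 in their deviations over 2 pairs, so the numbers were not taken to pair the samples.

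List medians with 1 library left out ran from -0.14 to 0.046 for WNT receptors, -0.23 to -0.12 for activin ligands and receptors, -0.12 to 0.057 for activin targets, -0.11 to 0.12 for BMP genes, -0.12 to 0.18 for mesendoderm and primitive streak genes, -0.084 to 0.24 for core pluripotency genes, -0.098 to 0.11 for primed pluripotency genes, -0.19 to -0.089 for EMT genes, -0.36 to -0.13 for integrins, -0.70 to -0.12 for SRF and YAP target genes, 0.039 to 0.078 for oxidative phosphorylation genes, -0.28 to -0.12 for amino acid response genes, -0.039 to 0.075 for p53 target genes, -0.48 to 0.021 for immediate early genes, 0.15 to 0.31 for G1/S genes, -0.076 to 0.044 for retinoic acid genes, -0.077 to 0.016 for neural genes, -0.27 to 0.23 for feeder fibroblast markers, -0.44 to -0.18 for endothelial and blood markers and -0.37 to -0.055 for oxidative stress genes. Medians that moved by less than the spread between replicates but turned sign ran from -0.30 to 0.16 for WNT ligands, -0.047 to 0.11 for WNT targets, -0.28 to 0.015 for FGF and ERK genes, -0.075 to 0.26 for G2/M genes, -0.018 to 0.21 for cholesterol synthesis genes, -0.027 to 0.028 for lipid genes and -0.033 to 0.10 for amnion and trophoblast genes. Other settings that moved a median gave WNT receptors -0.14 (median-ratio scaling), activin ligands and receptors -0.23 (pseudocount of 0.1), activin ligands and receptors -0.24 (median-ratio scaling), oxidative phosphorylation genes 0.020 (median-ratio scaling), oxidative phosphorylation genes 0.027 (quantile normalization).

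Single genes whose sign turned were all uncalled. With 1 library left out their log2 differences ran from -0.51 to 0.080 for TBXT, -0.023 to 0.34 for EOMES, -0.93 to 0.65 for SOX17, -0.058 to 0.12 for TFAP2C, -0.11 to 0.29 for AXIN2, -0.000873 to 0.66 for LEF1, -0.50 to 0.068 for SLC2A1, -0.10 to 0.071 for GAPDH, -0.77 to 0.35 for FZD7, -0.40 to 0.057 for SFRP1, -0.70 to 0.12 for ID3, -0.093 to 0.30 for DPPA5, -0.092 to 0.16 for CALR, -0.11 to 0.061 for BAX, -0.00870 to 0.21 for HSP90AA1, -0.32 to 0.00115 for LGALS1 and -0.62 to 0.013 for SOD2, and other settings gave TFAP2C -0.011 (median-ratio scaling), ATP5F1B -0.00854 (median-ratio scaling), ATP5F1B -0.00237 (quantile normalization), CALR -0.011 (median-ratio scaling). The causes were not tested, and depth, which TPM do not keep, sets an unknown limit on low genes.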
